A study of Mus musculus with 6 samples.

Results

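The machinery that stores and releases neurotransmitter was followed through 41 genes. They encode proteins of the synaptic vesicle membrane, the SNARE fusion complex, the calcium sensors of release, the active zone and the retrieval of membrane. The genes were listed by name, and all 41 had a row among the 54532 genes of the deposited table. Cerebral cortex RNA of mice at 12 months of age made up 6 libraries, of which 3 are wild type (WT 1 to 3) and 3 are labelled as knockout of Fam69c, genotype Fam69c-/- (KO 1 to 3). Fam69c encodes a kinase-like protein of the secretory pathway. No treatment or other allele is named for either group, and RNA was measured in bulk, neurons and glia together. Whether the libraries stem from different mice is not stated, and p-values therefore rest on the spread among libraries, which may be technical.

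At a nerve terminal, vesicles are filled with transmitter by transporters in their membrane and held in clusters by synapsins. Scaffolds of the active zone bring them to the plasma membrane, where Unc13 proteins prime them and SNARE proteins pull the membranes together. Calcium bound by synaptotagmin triggers fusion, complexins hold and assist the SNAREs, and NSF with its adaptors takes the spent complexes apart. Dynamin, amphiphysin and synaptojanin then retrieve the vesicle membrane. Most cortical terminals belong to excitatory neurons, and several members have paralogues that are best known from particular inhibitory or subcortical neurons.

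Promoters from RefSeq (GRCm38.p6) were matched for 33 of the 41 genes, with 42 start sites. They are shown for Syn1, which encodes synapsin 1 and held the rarest of 6 motifs searched, and for Vamp1, Cplx1 and Syt2, which shared their highest and their lowest library. Bases upstream of both the RefSeq start and the deposited gene span are given. The windows are chrX:20921005-20921168 (minus strand, 164 bases) for Syn1, chr6:125215331-125215550 (plus strand, 220 bases) for Vamp1, chr5:108550028-108550277 (minus strand, 250 bases) for Cplx1 and chr1:134646362-134646611 (plus strand, 250 bases) for Syt2. Capitals mark matches on either strand. The motifs searched were TGACGTCA, the cAMP response element, TTCAGCACC, the left arm of the element bound by the repressor REST, and GGGCGGGG, the GC box. The letters CCAAT were searched as the box of that name, TATAAA as the core promoter element that binds the general transcription machinery, and CACGTG as the E-box. None of these motifs contains another.
Syn1: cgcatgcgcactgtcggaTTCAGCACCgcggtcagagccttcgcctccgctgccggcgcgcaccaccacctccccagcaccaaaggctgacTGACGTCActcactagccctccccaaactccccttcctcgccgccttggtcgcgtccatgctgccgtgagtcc
Vamp1: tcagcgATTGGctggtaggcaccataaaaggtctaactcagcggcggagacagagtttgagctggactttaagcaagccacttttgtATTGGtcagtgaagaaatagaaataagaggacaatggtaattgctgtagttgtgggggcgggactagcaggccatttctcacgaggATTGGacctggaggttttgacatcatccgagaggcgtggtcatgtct
Cplx1: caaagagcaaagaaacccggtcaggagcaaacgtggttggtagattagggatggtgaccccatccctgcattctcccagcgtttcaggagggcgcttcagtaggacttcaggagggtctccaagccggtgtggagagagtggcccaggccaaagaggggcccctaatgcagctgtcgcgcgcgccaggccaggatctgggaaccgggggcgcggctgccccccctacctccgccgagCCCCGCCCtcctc
Syt2: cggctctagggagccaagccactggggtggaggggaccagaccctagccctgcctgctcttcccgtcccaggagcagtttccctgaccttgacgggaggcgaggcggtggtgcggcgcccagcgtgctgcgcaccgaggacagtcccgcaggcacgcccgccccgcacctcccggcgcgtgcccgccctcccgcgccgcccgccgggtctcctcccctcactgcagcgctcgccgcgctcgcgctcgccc
Syn1 held TTCAGCACC starting 232 bases and TGACGTCA starting 159 bases before the RefSeq start, and was the 1 member gene with either. These motifs were found in 0.301% and 1.55% of all 32851 promoter windows of 250 bases. Vamp1 held 3 CCAAT boxes, which 33.8% of all windows and 26.2% of the members' windows held at least once. Cplx1 held 1 GC box, found in 16.1% of all windows and in 13 of the members' 42 windows (31.0%). In the Syt2 window printed none of the 6 motifs was found, and Vamp1, Cplx1 and Syt2 had no motif in common in the windows printed. Outside that window, at a start site not printed, Syt2 did hold the GC box, as Cplx1 did, and the CCAAT box, as Vamp1 did. TATAAA stood in 4.76% of the members' windows, all of Sv2b, and in 12.4% of all windows, while CACGTG stood in 11.9% and 6.02%. The members' windows had a median of 61.2% G and C and 12.5 CG dinucleotides, beside 52.4% and 6 over all windows.

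The reads behind the values could be recovered and numbered from 30935326 to 35065884 per library. Fam69c RNA was present in every library, at 2.03, 1.57 and 2.08 FPKM in WT 1, 2 and 3 and 1.54, 1.84 and 1.42 FPKM in KO 1, 2 and 3, with overlapping groups. The RNA level thus gives no check of the genotype, and directions are given between the libraries as they were labelled. Markers of cortical excitatory neurons were present throughout, with 7 of 7 measured and a summed level between 550.7 and 587 FPKM. Most of that sum was Camk2a, at 411 to 448 FPKM. Cux2 varied most of the 7 as a ratio, from 9.14 FPKM in WT 2 to 14.4 FPKM in WT 3. Markers of striatal projection neurons had the largest ratio of highest to lowest library among the summed marker lists, running from 160 FPKM in WT 3 and 218 FPKM in KO 1 to between 361 and 468 FPKM in the other 4. Blood genes were lowest in KO 2, at 73.0 FPKM against 109 to 125 FPKM elsewhere. In bulk tissue, fewer cells of a type and less RNA per cell cannot be told apart.

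The comparison asked whether the RNA of the release machinery differs between WT cortex and cortex labelled Fam69c-/-. No member passed. Of 41 members, all of which entered the test with means from 0.849 to 402 FPKM, 0 had an adjusted p under 0.05 and 0 an unadjusted p under 0.05 (limma, Benjamini-Hochberg over 15694 genes, smallest unadjusted p = 0.173, adjusted p = 0.999 for every member). Over all genes tested these shares were 0% and 3.82%. Fold changes, given as log2 of KO over WT on FPKM + 0.5, ran from -0.19 to 0.09 across the members. Their median was -0.017, beside -0.0042 over all genes tested, with 17 members on the higher and 24 on the lower side. With values rescaled to the sum of protein-coding genes, 22 were on the higher and 19 on the lower side, so the balance of signs depends on the scale. The 95% intervals of all 41 included 0. Their outermost bounds were -0.53 and 0.52, and 28 of 41 intervals lay wholly within 0.25 log2 units of 0. All bounds were thus short of 1 log2 unit, a 2-fold change of FPKM + 0.5. For members of low level a 2-fold change of FPKM itself would be less than 1 log2 unit on this scale. The groups did not overlap for 1 member, Rims2 (2.44%), beside 8.87% of all genes tested.

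**Figure D1:**
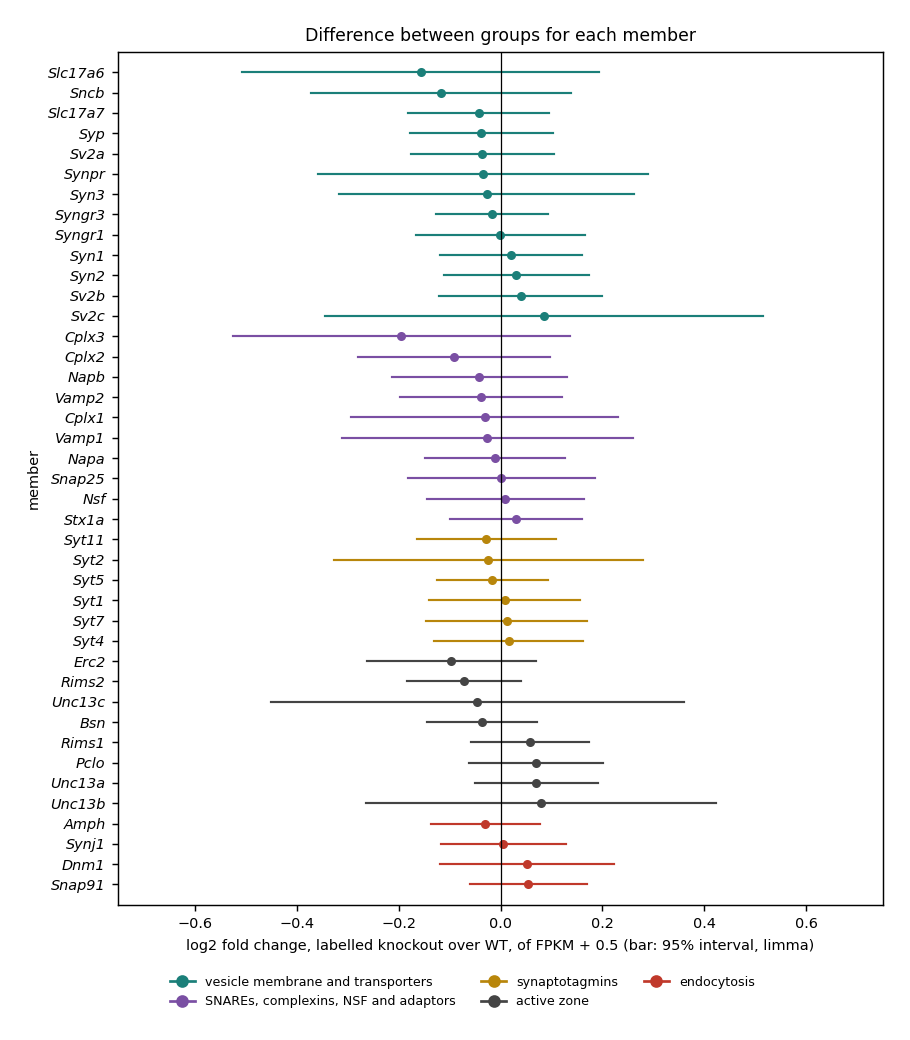
Log2 fold change of each of the 41 members, KO over WT on FPKM + 0.5, with its 95% interval from limma (horizontal bar), grouped and coloured by role. All 41 bars cross 0, and the outermost bounds are -0.53 and 0.52.

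Among the vesicle membrane proteins, the most abundant transcript was that of Slc17a7 (mm10 chr7:45163949-45176142, plus strand), the vesicular glutamate transporter of most cortical excitatory neurons. It measured 310.2, 299 and 306 FPKM in WT 1, 2 and 3 and 312, 291 and 285.5 FPKM in KO 1, 2 and 3. KO 1 was the highest library and KO 3 the lowest, so the groups overlapped, and the fold change was -0.04 (95% interval -0.18 to 0.10). Slc17a6, the transporter best known from thalamic and other subcortical neurons, was far less abundant, at 3.73, 3.26 and 4.18 FPKM in WT 1, 2 and 3 and 3.73, 2.55 and 3.66 FPKM in KO 1, 2 and 3. Here WT 3 was highest and KO 2 lowest, and the fold change was -0.16 ± 0.15 (SE) with a 95% interval from -0.51 to 0.19. Summed thalamic markers, given beside it because thalamic neurons carry Slc17a6, ranged from 14.99 FPKM in KO 3 to 18.4 FPKM in KO 1 and were 16.1 FPKM in KO 2, where Slc17a6 was lowest. Ramp3 was the largest part of the sum, from 5.71 FPKM in KO 3 to 9.30 FPKM in KO 1. As a mean log2 deviation over the 5 of 7 markers past the filter, KO 2 was lowest (-0.077), beside KO 3 (-0.072). By that measure KO 1 was highest (0.082), followed by WT 3 (0.067). The part of thalamic neurons in the Slc17a6 values was not tested.

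Synapsins coat vesicles and tether them in clusters. Syn1 had means of 271 ± 5.33 and 275 ± 13.9 FPKM in WT and KO (SD, n = 3 each), Syn2 74.4 ± 0.429 and 76.2 ± 5.52 FPKM, and Syn3, a synapsin best known from developing neurons, 0.864 ± 0.144 and 0.834 ± 0.0590 FPKM. Reads for Syn3 numbered 268 to 382 per library, the fewest of any member, and 14.1% of its exon bases are shared with Timp3 on the other strand in GENCODE M21. Timp3 had a mean of 5.06 FPKM, above that of Syn3, and the part of Timp3 reads in the Syn3 values was not tested. Synaptophysin, the most used marker of vesicles, is encoded by Syp, which read 169.5 ± 7.89 and 165 ± 6.997 FPKM. Of the Syp exon bases, 16.8% are shared with a noncoding gene on the other strand. Since no source used here says that counting used strand, such reads may not be separated. Its relatives were Syngr1 at 139 ± 1.79 and 139 ± 12.1 FPKM and Syngr3 at 87.1 ± 2.08 and 86.1 ± 2.36 FPKM, with KO 1 the highest library of all 6 for Syngr1 and the lowest for Syngr3. Synpr encodes synaptoporin, a relative of synaptophysin found in some interneurons and hippocampal fibres. It gave 9.26, 8.46 and 7.12 FPKM in WT 1, 2 and 3 and 6.69, 9.36 and 8.25 FPKM in KO 1, 2 and 3, and the highest and lowest libraries of all 6 were both labelled KO.

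SV2 proteins are glycoproteins of the vesicle membrane that bind synaptotagmin. Sv2a averaged 122 ± 3.34 FPKM in WT and 119 ± 7.31 FPKM in KO. Sv2b was measured at 72.4, 73.0 and 70.6 FPKM in WT 1, 2 and 3 and 78.0, 77.6 and 67.1 FPKM in KO 1, 2 and 3, where KO 1 and KO 2 lay above and KO 3 below every WT library, with a fold change of 0.04 ± 0.07 (SE) with a 95% interval from -0.12 to 0.20. Sv2c, best known from the basal ganglia, was found at 7.99, 8.18 and 4.91 FPKM in WT 1, 2 and 3 and 6.69, 7.64 and 7.64 FPKM in KO 1, 2 and 3. WT 3 stood apart below the other 5 libraries, and the fold change was 0.09 (95% interval -0.35 to 0.52). Sncb encodes beta-synuclein, a terminal protein related to alpha-synuclein. Its levels were 207, 173 and 174 FPKM in WT 1, 2 and 3 and 194, 161 and 157 FPKM in KO 1, 2 and 3, with WT 1 and KO 1 the highest libraries, and its fold change was -0.12 ± 0.11 (SE) with a 95% interval from -0.37 to 0.14. In this group of 13 genes 4 were on the higher and 9 on the lower side, with a median of -0.027.

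**Figure D2:**
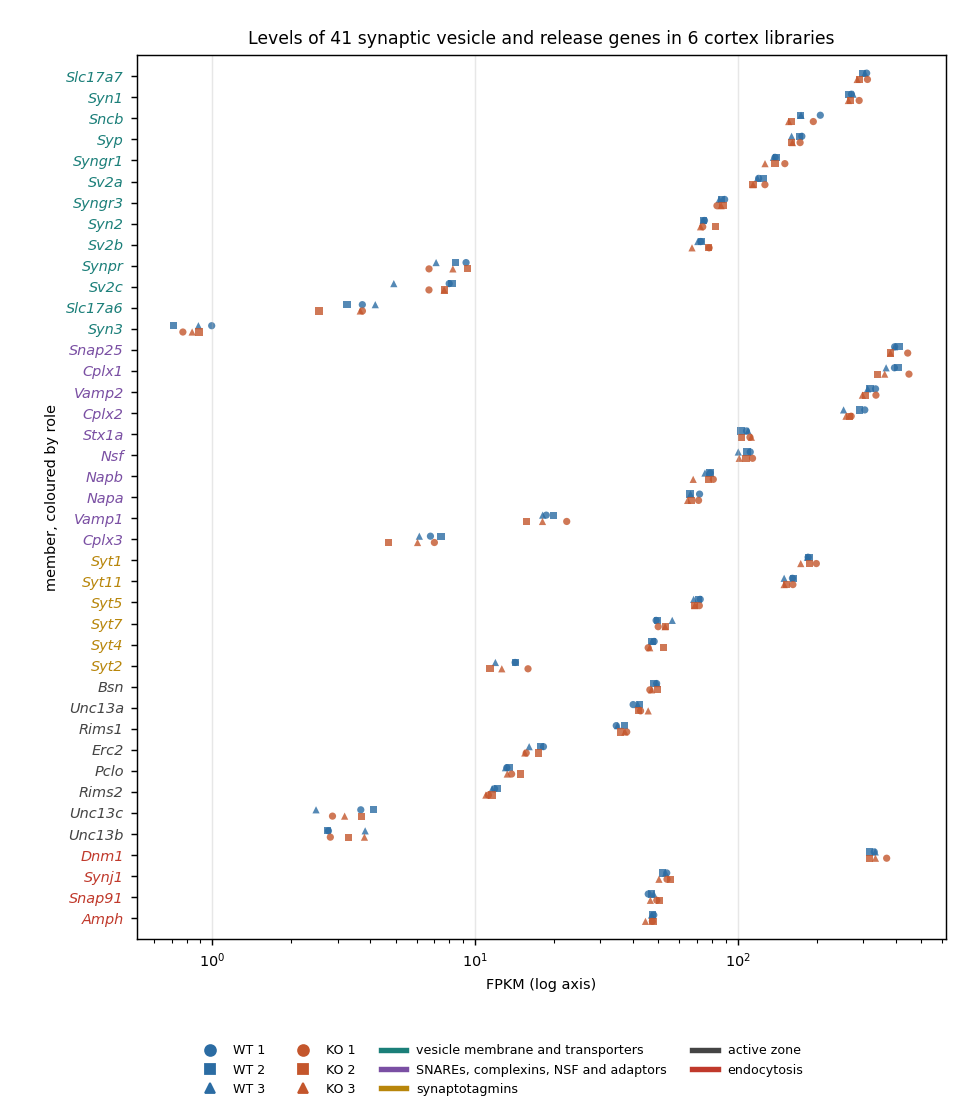
FPKM of the 41 members (log axis) in 3 WT libraries (blue) and 3 KO libraries (orange), 1 point per library, with gene names coloured by role. Points of both groups lie among each other in nearly every row, and the widest rows are those of the less abundant members such as Unc13c and Sv2c.

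The fusion machinery held the most abundant member of all, Snap25 (mm10 chr2:136713453-136782428, plus strand), a SNARE of the plasma membrane. Its values were 396, 412 and 396 FPKM in WT 1, 2 and 3 and 445, 382 and 382 FPKM in KO 1, 2 and 3. KO 1 was the highest of the 6 and KO 2 and KO 3 the lowest, and the means of 401.5 ± 8.78 and 403 ± 36.0 FPKM differed by far less than that spread (fold change interval from -0.18 to 0.19). Vamp2, the vesicle SNARE of most terminals, averaged 322.5 ± 11.6 FPKM in WT and 314 ± 19.8 FPKM in KO, and Stx1a, the syntaxin that pairs with Snap25, 107 ± 3.45 FPKM in WT and 109 ± 5.09 FPKM in KO. Vamp1, a vesicle SNARE best known from fast-spiking interneurons and spinal neurons, was present at 18.7, 19.9 and 18.1 FPKM in WT 1, 2 and 3 and 22.4, 15.7 and 18.1 FPKM in KO 1, 2 and 3. The KO libraries spanned a wider range than the WT libraries on both sides. The ATPase gene Nsf read 107 ± 5.74 and 108 ± 6.28 FPKM, and its adaptors Napa and Napb 67.9 ± 3.25 and 67.4 ± 3.32 FPKM and 77.5 ± 1.99 and 75.5 ± 6.82 FPKM, in WT and KO. The fold change intervals of these 3 genes were from -0.14 to 0.16, from -0.15 to 0.13 and from -0.21 to 0.13.

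Complexins bind the assembled SNAREs. Cplx1 (mm10 chr5:108518554-108550024, minus strand) was nearly as abundant as Snap25, at 396, 408 and 368 FPKM in WT 1, 2 and 3 and 449, 341 and 363 FPKM in KO 1, 2 and 3. Both the highest and the lowest library were labelled KO, and the fold change was -0.03 (95% interval -0.29 to 0.23). Cplx2 (mm10 chr13:54371349-54383917, plus strand), the complexin of most excitatory neurons, was measured at 305, 292 and 253 FPKM in WT 1, 2 and 3 and 271, 266 and 259 FPKM in KO 1, 2 and 3. WT 1 and WT 2 lay above all KO libraries and WT 3 below them, with a fold change of -0.09 ± 0.08 (SE) with a 95% interval from -0.28 to 0.10. Cplx3 (mm10 chr9:57599992-57606281, minus strand), best known from the retina and from the deepest cortical layer, had the lowest fold change of the 41. It read 6.77, 7.44 and 6.15 FPKM in WT 1, 2 and 3 and 7.01, 4.70 and 6.05 FPKM in KO 1, 2 and 3, with KO 2 lowest and KO 1 among the highest, a fold change of -0.19 ± 0.14 (SE) with a 95% interval from -0.53 to 0.14. Summed layer 6b markers (3 of 4 names had a row) were 19.9, 21.1 and 14.2 FPKM in WT 1, 2 and 3 and 15.5, 15.1 and 16.3 FPKM in KO 1, 2 and 3. WT 1 and WT 2 had the highest marker sums, while KO 1 had more Cplx3 than WT 1 beside a low marker sum. Their part in the Cplx3 values was not tested. Of the 10 fusion genes, 3 were on the higher and 7 on the lower side, with a median of -0.029.

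Synaptotagmins sense calcium. Syt1, the fast sensor of most forebrain terminals (mm10 chr10:108497650-109010982, minus strand), was found at 186, 187 and 185 FPKM in WT 1, 2 and 3 and 199.6, 188 and 174 FPKM in KO 1, 2 and 3, and its fold change was 0.01 (95% interval -0.14 to 0.16). Syt2, the fast sensor of many fast-spiking interneurons, gave 14.2, 14.2 and 12.0 FPKM in WT 1, 2 and 3 and 15.9, 11.4 and 12.7 FPKM in KO 1, 2 and 3. Its highest and lowest libraries were KO 1 and KO 2. Syt7, a slower sensor of high calcium affinity, averaged 51.6 ± 4.14 FPKM in WT and 52.0 ± 1.83 FPKM in KO. Syt11 and Syt4, which lack the usual calcium binding, averaged 158 ± 6.86 and 155 ± 6.32 FPKM and 47.5 ± 0.541 and 48.2 ± 3.73 FPKM, and Syt5 70.4 ± 2.08 and 69.6 ± 1.70 FPKM. Syt4 is also known as an activity-regulated gene. Immediate early genes were highest as a sum in WT 3, at 666 FPKM against 333 to 463 FPKM elsewhere, while Syt4 read 47.2 FPKM in WT 3 and was highest in KO 2, at 52.4 FPKM. Of the Syt4 exon bases, 14.5% are shared with a noncoding gene on the other strand whose mean was 0.109 FPKM. Among the 6 synaptotagmins 3 were on each side of 0.

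At the active zone, members lay on either side of 0, with 4 higher, 4 lower and a median of 0.011. Rims2 (mm10 chr15:39198261-39684372, plus strand), a scaffold that binds Rab3 and calcium channels, had the smallest p of the 41. It was measured at 11.9, 12.2 and 11.6 FPKM in WT 1, 2 and 3 and 11.3, 11.6 and 11.0 FPKM in KO 1, 2 and 3. All 3 KO libraries lay below all 3 WT libraries, by a gap from 11.63 FPKM in WT 3 to 11.62 FPKM in KO 2, and the fold change was -0.07 ± 0.05 (SE) with a 95% interval from -0.18 to 0.04 (limma unadjusted p = 0.173, adjusted p = 0.999). Its paralogue Rims1 (mm10 chr1:22286251-22805994, minus strand) lay on the other side, at 34.5, 37.1 and 34.9 FPKM in WT 1, 2 and 3 and 37.9, 35.8 and 37.2 FPKM in KO 1, 2 and 3. WT 2 fell within the KO range, and the fold change was 0.06 ± 0.05 (SE) with a 95% interval from -0.06 to 0.17. Erc2 (mm10 chr14:27622428-28478537, plus strand), an ELKS family scaffold that binds Rims proteins, read 18.2, 17.7 and 16.1 FPKM in WT 1, 2 and 3 and 15.7, 17.4 and 15.5 FPKM in KO 1, 2 and 3, with a fold change of -0.10 ± 0.07 (SE) with a 95% interval from -0.26 to 0.07. KO 2 lay between WT 3 and WT 2, so the groups overlapped.

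Bassoon and piccolo are the giant scaffolds of the active zone. Bsn (mm10 chr9:108096022-108190384, minus strand) gave 49.2, 47.9 and 49.4 FPKM in WT 1, 2 and 3 and 46.4, 49.5 and 47.0 FPKM in KO 1, 2 and 3, the narrowest range of this group as a ratio of highest to lowest, and a fold change of -0.04 (95% interval -0.14 to 0.07). Pclo (mm10 chr5:14514918-14863459, plus strand) was present at 13.2, 13.6 and 13.1 FPKM in WT 1, 2 and 3 and 13.8, 14.9 and 13.3 FPKM in KO 1, 2 and 3, with KO 2 highest, KO 3 within the WT range and a fold change of 0.07 ± 0.06 (SE) with a 95% interval from -0.06 to 0.20. Unc13a (mm10 chr8:71624417-71671757, minus strand), the main priming factor of excitatory terminals, measured 40.0, 42.3 and 41.7 FPKM in WT 1, 2 and 3 and 42.7, 41.9 and 45.7 FPKM in KO 1, 2 and 3. KO 3 was the highest library and KO 2 lay within the WT range, and the fold change was 0.07 ± 0.05 (SE) with a 95% interval from -0.05 to 0.19. In GENCODE M21, 3.92% of its exon bases are shared with Colgalt1 on the other strand, a gene with a mean of 10.8 FPKM. The less abundant Unc13b averaged 3.11 ± 0.616 FPKM in WT and 3.30 ± 0.491 FPKM in KO, with a fold change of 0.08 (95% interval -0.26 to 0.42). Unc13c, the paralogue best known from cerebellar granule cells, was found at 3.68, 4.11 and 2.49 FPKM in WT 1, 2 and 3 and 2.87, 3.70 and 3.19 FPKM in KO 1, 2 and 3. WT 3 and KO 1 were its lowest libraries. Summed cerebellar markers were between 1.42 and 2.56 FPKM, with 1 of 5 genes past the expression filter and 1 of 5 at 0 in at least 1 library.

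Of the genes for membrane retrieval, Dnm1 (mm10 chr2:32308471-32353338, minus strand), the dynamin of nerve terminals that pinches vesicles off, was the most abundant. It read 332, 318 and 334 FPKM in WT 1, 2 and 3 and 369.7, 317 and 335 FPKM in KO 1, 2 and 3. KO 1 stood above the other 5 libraries, whose range was 317 to 335 FPKM, and the fold change of 0.05 ± 0.07 (SE) with a 95% interval from -0.12 to 0.22 turned to -0.0088 without KO 1. Snap91 (mm10 chr9:86765923-86880654, minus strand), the clathrin assembly protein AP180, was measured at 45.7, 47.0 and 48.0 FPKM in WT 1, 2 and 3 and 49.3, 50.3 and 46.6 FPKM in KO 1, 2 and 3, with KO 3 inside the WT range and a fold change of 0.05 ± 0.05 (SE) with a 95% interval from -0.06 to 0.17. Amph, which recruits dynamin, averaged 47.5 ± 0.465 FPKM in WT and 46.6 ± 1.70 FPKM in KO. Synj1, the phosphatase that uncoats vesicles, averaged 53.0 ± 0.973 FPKM in WT and 53.2 ± 2.70 FPKM in KO, with a fold change interval from -0.12 to 0.13.

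The median coefficient of variation within groups was 5.56% over the 41 members. Counting error, which is part of that spread, would alone give a median of 0.893%. For 29 members the highest library was under 1.2 times the lowest, for 8 it was from 1.2 to 1.5 times, and for 4 it was more: Sv2c, Unc13c, Slc17a6 and Cplx3. KO 1 was the highest library for 15 of 41 members (36.6%), beside 17.8% of all genes tested, and KO 3 the lowest for 15 (36.6%), beside 19.7%. The members' mean deviation from the average of the 6 libraries stayed within 0.04 log2 units in every library. It was 0.037, 0.019 and -0.034 in WT 1, 2 and 3 and 0.036, -0.019 and -0.039 in KO 1, 2 and 3. Together the members took 2.27% to 2.42% of all reads.

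Vamp1, Syt2 and Cplx1, 3 members that fast-spiking interneurons are known to carry, were all highest in KO 1 and lowest in KO 2. The marker Pvalb, which encodes the calcium buffer parvalbumin of these cells, had the same highest and lowest libraries, at 62.7, 65.0 and 52.7 FPKM in WT 1, 2 and 3 and 73.0, 48.5 and 56.4 FPKM in KO 1, 2 and 3. Of the other 4 fast-spiking markers, Kcnc1 also had these extremes, at 31.10 FPKM in KO 1 and 29.1 FPKM in KO 2, with WT 1 at 31.09 FPKM. Kcnc2 and Kcns3 were highest in KO 1 but lowest in WT 2, and Cox6a2 was highest in WT 1 and lowest in WT 3. The sum of the 5 markers, of which Pvalb is the most abundant, was 123, 123 and 111 FPKM in WT 1, 2 and 3 and 136, 105 and 115 FPKM in KO 1, 2 and 3, again highest in KO 1 and lowest in KO 2. In all, 6 of 41 members had this pair of extremes (14.6%), the others being Snap25, Dnm1 and Sv2a, beside 3.06% of all genes tested. The pattern was noticed in the values and both extremes are libraries of 1 group, so it adds nothing to the difference between groups. Oligodendrocyte markers were also high in KO 1, at 673 FPKM, and low in KO 2, at 534 FPKM, with WT 2 higher at 677 FPKM and WT 3 lower at 519 FPKM. The part of any of these cells in the values was not tested.

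**Figure D3:**
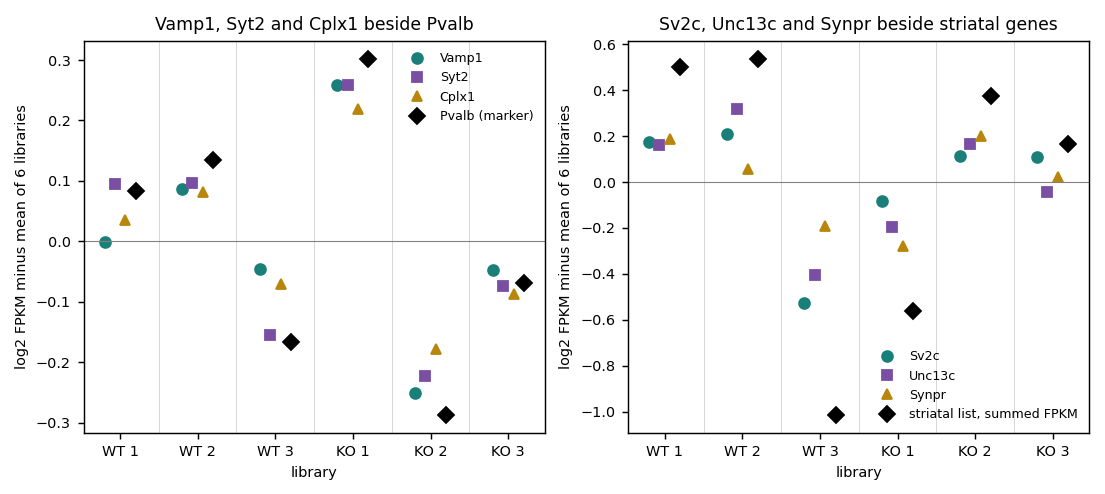
Log2 FPKM minus the mean of the 6 libraries, 1 point per gene and library. Left, Vamp1, Syt2 and Cplx1 beside Pvalb, all highest in KO 1 and lowest in KO 2. Right, Sv2c, Unc13c and Synpr beside the summed striatal markers, all below their mean in WT 3 and KO 1. The genes were picked after their values were seen. Syngr3, with the same lowest pair, and the fast-spiking markers other than Pvalb are not drawn.

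WT 3 and KO 1, the libraries lowest in striatal markers, were also the lowest pair for 4 members: Sv2c, Unc13c, Synpr and Syngr3 (9.76%), beside 6.52% of all genes tested. The striatal gene Ppp1r1b read 126, 123 and 48.3 FPKM in WT 1, 2 and 3 and 65.5, 111 and 98.0 FPKM in KO 1, 2 and 3. Of the 12 striatal markers, all were measured and 0 were at 0 in any library. One of the pair is WT and the other KO. With both left out, leaving 2 libraries a group, 8 of 41 members (19.5%) had an unadjusted p under 0.05, beside 13.3% of all genes tested, and 0 had an adjusted p under 0.05, beside 0.00637% of all genes (limma, smallest adjusted p of a member = 0.273). On the lower side were Cplx3 (log2 fold change -0.38), Sncb (-0.25), Syt2 (-0.23), Cplx1 (-0.19), Cplx2 (-0.19) and Syp (-0.11), and on the higher side Syt7 (0.11) and Unc13b (0.31). The median of the 41 was then -0.067, beside -0.0086 over all genes. KO 1 was also the library that was highest for more members than any other, and the part of striatal tissue in these values was not tested.

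Paralogue composition was compared as the share of each family's summed FPKM, a measure that the scale of a library cannot change. In 9 of 10 families the groups overlapped. No such share was formed for families of other genes, and over single genes tested the groups did not overlap for 8.87%. Slc17a7 made up 98.8% ± 0.137 in WT and 98.9% ± 0.209 in KO of the 2 glutamate transporters, and Vamp2 94.5% ± 0.293 in WT and 94.4% ± 0.690 in KO of Vamp1 and Vamp2. Syt1 held 93.2% ± 0.580 in WT and 93.4% ± 0.839 in KO of Syt1 and Syt2, Syn1 78.2% ± 0.360 in WT and 78.1% ± 1.63 in KO of the synapsins, and Unc13a 86.3% ± 0.444 in WT and 86.9% ± 1.28 in KO of the Unc13 genes. The complexins were more even, with Cplx1 at 57.4% ± 1.38 in WT and 58.5% ± 3.08 in KO, where KO 1 reached 61.8%. The remaining family was that of Rims1 and Rims2. Of the sum of Rims1 and Rims2 alone, Rims1 held 74.4%, 75.3% and 75.01% in WT 1, 2 and 3 and 77.1%, 75.5% and 77.2% in KO 1, 2 and 3. These shares were formed after the values of single genes were seen, and no test is given for them.

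**Figure D4:**
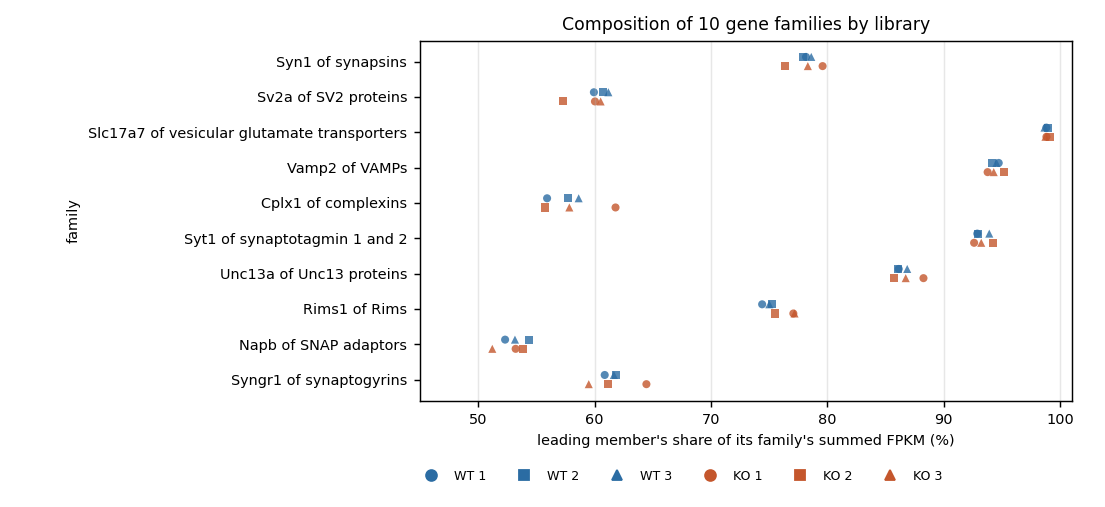
Share of the leading member in the summed FPKM of its family, in percent, for 10 families, with 1 point per WT (blue) and KO (orange) library. The axis starts at 45% and the groups overlap in every family but that of Rims1 and Rims2.

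A further list held 71 other genes of the vesicle cycle, of which 69 passed the expression filter. None passed in limma, with 0 at an adjusted and 0 at an unadjusted p under 0.05, beside 0% and 3.82% of all genes tested. On this scale 30 were on the higher and 39 on the lower side. Their median was -0.016, beside -0.0042 over all genes tested, and signs on other scales were not counted. The smallest p on the lower side belonged to Vamp3, a SNARE of general membrane traffic, at 9.50 ± 0.563 and 8.68 ± 0.310 FPKM with a fold change of -0.12 (95% interval -0.27 to 0.02), to Syt10, a sensor of growth factor release, at 1.37 ± 0.352 and 1.01 ± 0.193 FPKM with a fold change of -0.30 (95% interval -0.70 to 0.10), and to the clathrin adaptor subunit gene Ap2a2, at 42.2 ± 0.209 and 40.2 ± 1.33 FPKM with a fold change of -0.07 (95% interval -0.17 to 0.04). On the higher side they were Slc17a8, the glutamate transporter of some interneurons and serotonin neurons, at 0.854 ± 0.217 and 1.12 ± 0.118 FPKM with a fold change of 0.26 (95% interval -0.07 to 0.60), Syt9 at 2.09 ± 0.187 and 2.40 ± 0.188 FPKM with a fold change of 0.17 (95% interval -0.05 to 0.38) and Syt17 at 6.80 ± 0.917 and 7.66 ± 0.768 FPKM with a fold change of 0.16 (95% interval -0.09 to 0.42). Rab3a, the vesicle GTPase that binds Rims proteins, averaged 272 ± 15.4 FPKM in WT and 269 ± 28.0 FPKM in KO, with a fold change of -0.02 (95% interval -0.23 to 0.19).

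Gene model length was set against the fold changes as a description. Of 14 members with models under 5000 bases 3 were on the higher side, and of 7 members over 10000 bases 3 were. Most of the 17 members on the higher side had lengths between these bounds. Across the 41 members the correlation of log2 length with the fold change was 0.38, and across all genes tested it was 0.039. Genes within these libraries are not independent replicates and share depth and scale, so no p is given.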

How the data were processed

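RNA of cerebral cortex was measured in 3 WT libraries and 3 libraries labelled Fam69c KO, mice aged 12 months. Per the labels' protocols, RNA was taken up in Trizol and libraries were made with an Illumina TruSeq kit. The submitters' processing notes name Bowtie and the mm10 build. Which program counted the reads, whether it used strand and which annotation it used is not given in the sources used here. The authors deposited 1 table of FPKM per gene, per the file headers. To recover reads, FPKM was multiplied by the deposited gene length and divided by the value of 1 read in that library, found from its low values. All values came out whole (100%, tolerance 0.001), with 30935326 to 35065884 reads per library.

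The 15694 genes that averaged 0.5 FPKM or more were tested on log2(FPKM + 0.5) with limma 3.58.1 in R 4.3.3, with a variance trend, two-sided, Benjamini-Hochberg adjustment over all genes and a threshold of 0.05. A ± after a mean is the SD of 3 libraries, except where SE is named. The test was run on simulated data with independent normal noise, 200 genes changed and 10 draws. It found 85.3% of 2-fold and 95.8% of 4-fold changes, with a mean of 11.1 false among 192.2 calls. Smaller changes, such as the fold changes of the members, were not simulated.

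Members and lists were chosen with earlier results of these data known. Fold changes with SE were given for the 6 members with the smallest p in each direction. Values by library were also given for the most abundant member of each role and for members best known outside most cortical neurons. The other fold change intervals, and the profile, family share and length comparisons, were chosen after values were seen. Exon overlaps are from GENCODE M21, whose start and end match the deposited ones for 39 of 41 members. Alternatives were other pseudocounts, filters, scalings and variance settings, sample weights, voom on the recovered reads, a replicate block, a threshold of 0.1, and leaving out libraries. Figures were drawn with matplotlib 3.10.9.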

Additional observations from a re-analysis of the deposited data

How the results depend on the processing

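Under each of 18 other settings, and at a threshold of 0.1 in the main fit, 0 members and 0 of the related genes passed in limma. Over all genes tested 0 passed as well, apart from 1 gene without both WT replicate 3 and KO replicate 1. A count of 0 is therefore not particular to these lists. At an unadjusted p under 0.05 there were 8 members (19.5%) without both WT replicate 3 and KO replicate 1, beside 13.3% of all genes. There was 1 member (2.44%) each with sample weights, with the replicate block, without WT replicate 3 and without KO replicate 1, beside 9.05%, 5.33%, 6.52% and 5.74% of all genes, and 0 otherwise. Of the related genes, 69 of which passed the main filter, there were 7 without both libraries, beside 13.3% of all genes. There were 5 without WT replicate 3 and 3 without WT replicate 1, beside 6.52% and 2.73% of all genes. With sample weights and with voom there was 1 each, beside 9.05% and 3.40% of all genes, and there were 0 otherwise. The members' median log2 fold change was -0.017. It moved by more than the spread between libraries, 0.038, only without WT replicate 3 and KO replicate 1 together, to -0.067, and leaving out 1 library at a time it ran from -0.036 to 0.0015. It was 0.0049 with TPM scaling and 0.0089 with protein-coding sum scaling, where the median of all genes was 0.017 and 0.019. The other filters, the fit with no variance trend and the replicate block left the 12 member fold changes given with SE as they were by construction. Under the 14 settings that can change them, 166 of 168 values kept their direction. Sv2b turned to -0.011 without WT replicate 3 and KO replicate 1 together, and Dnm1 ran from -0.0088 to 0.10 when 1 library was left out at a time, turning without KO replicate 1. On the same leave-one-out basis Cplx3 ran from -0.32 to -0.05, Slc17a6 from -0.24 to -0.0030, Sncb from -0.21 to -0.03, Cplx2 from -0.17 to -0.04, Erc2 from -0.15 to -0.06 and Rims2 from -0.09 to -0.05. On the higher side Sv2b ran from 0.0028 to 0.11, Pclo from 0.03 to 0.10, Unc13a from 0.03 to 0.10, Snap91 from 0.03 to 0.09 and Rims1 from 0.04 to 0.09. With the replicate block the members' median was -0.017, 0 members passed, and the smallest adjusted p of a member was 0.909 (limma). Whether replicate numbers mark pairs cannot be settled from so few libraries. Deviations of same-numbered libraries correlated at 0.082, 0.013 and 0.21, the last being the highest value of any WT and KO pair. Libraries of different numbers correlated at -0.164 to 0.113, and WT 2 correlated more with KO 1 (0.113) than with KO 2. With 3 libraries a group, 95% intervals extended a median of 0.15 log2 units either way for members and 0.21 for all genes. These widths are for single genes without adjustment and are not the limit for a call. Counting error, which is part of the spread between libraries, was largest for Syn3, at 5.39% within a spread of 12.9%.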

Other observations

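Among the other vesicle cycle genes, 3 that regulate release were picked out after their values by library were seen. Stxbp5l encodes a tomosyn, a protein that occupies syntaxin and holds back SNARE assembly. It read 4.65, 4.75 and 2.29 FPKM in WT 1, 2 and 3 and 4.08, 5.27 and 2.66 FPKM in KO 1, 2 and 3, so that WT 3 and KO 3 were low and the groups overlapped, with a fold change interval from -0.67 to 0.77. Doc2b, a calcium sensor of spontaneous release, was measured at 7.35, 6.57 and 4.72 FPKM in WT 1, 2 and 3 and 4.42, 7.77 and 6.65 FPKM in KO 1, 2 and 3. WT 3 and KO 1, the libraries lowest in striatal markers, were its lowest pair. Syt6 gave 7.17, 8.49 and 5.16 FPKM in WT 1, 2 and 3 and 6.84, 7.72 and 7.83 FPKM in KO 1, 2 and 3, with the same lowest pair. Of all genes tested 6.52% had this lowest pair, and 2 genes picked for it give no share for the list. None of the 3 had an unadjusted p under 0.05 in limma.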
